A study of Homo sapiens with 3 samples.

Results

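The genes described here are FST, BMP8B, IGFBP4, LGR4 and NOTCH3, which encode secreted modulators of growth factors and receptors of developmental signalling. They are 5 of the 14884 genes that the platform annotation names on the array, and each was read by 1 probe set carrying its symbol. They were chosen because earlier results of these same arrays showed differences for them, so their own values are a description and carry no test. The cells were MDA-MB-231, a long-established human line of triple-negative breast cancer, which lacks the hormone receptors. The groups were cells given 10 µM Mt-CFX for 72 h, cells given 10 µM CFX for 72 h, and control cells kept for 72 h with 1% DMSO, the solvent. A DMSO content is stated for the control alone. Ciprofloxacin, named in the title of the series, is a fluoroquinolone antibiotic, while for Mt-CFX the labels give a code name and nothing more. There were 3 arrays, 1 per group (n = 1). Values therefore come without a replicate error, no test or p-value was possible, and no difference was checked against the spread between cultures.

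Follistatin, the product of FST, is a secreted protein that binds activins and some bone morphogenetic proteins (BMPs) and keeps them from their receptors, which signal through SMAD proteins. BMP8B is a BMP ligand of that same superfamily. IGFBP4 binds insulin-like growth factors (IGFs) outside the cell and limits their access to the IGF receptor, until proteases of the pappalysin family cleave it. LGR4 is a receptor for R-spondins, secreted proteins that raise Wnt signalling by removing the ubiquitin ligases ZNRF3 and RNF43, which otherwise clear Frizzled receptors from the membrane. NOTCH3 is one of the Notch receptors, which are cleaved after contact with a ligand on a neighbouring cell and then act in the nucleus with RBPJ.

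With Mt-CFX, FST, IGFBP4 and LGR4 were each lower than in the vehicle control by a similar amount, to between 41.0% and 44.0% of the control level. With CFX at the same dose and time these genes stood at 90.2% to 92.4% of the control level. BMP8B had the same value with both compounds, 63.7% of the control level. NOTCH3 was the one member that was higher than control, at 114.9% of the control level with Mt-CFX and 150.0% with CFX. Each array averages over a culture, so fewer cells that carry a transcript and less transcript per cell cannot be told apart.

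**Figure D1:**
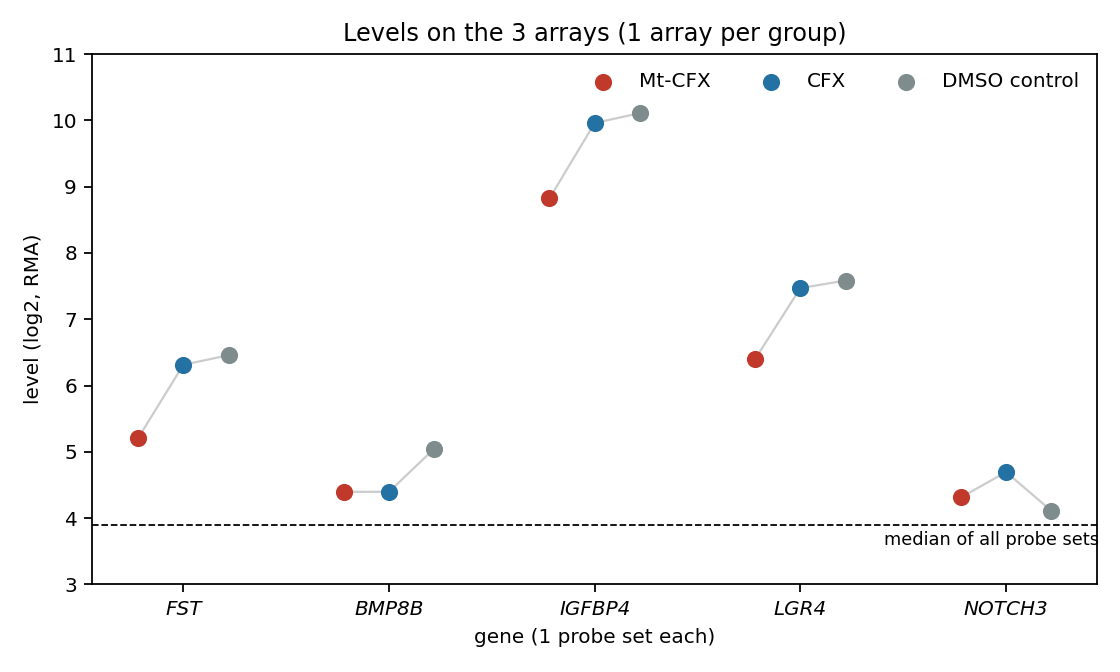
Levels (log2, RMA) of the 5 genes on the Mt-CFX, CFX and DMSO control arrays, 1 point per array, with no error bars because each group was 1 array. The Mt-CFX point lies lowest for FST, IGFBP4 and LGR4, both compounds coincide at 4.40 for BMP8B, and the CFX point is highest for NOTCH3 at 4.69; the dashed line is the median of all probe sets, 3.89.

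Levels below are log2 values made by RMA, a method that corrects background, gives all arrays one distribution and combines the probes of each set into 1 value. A difference is one such level minus another. As context, 8868 protein-coding genes were compared, those with at least 1 array at or above 3.89 log2, the median over all probe sets, and this floor was met by all 5 members on all 3 arrays. Of these genes 45.3% had exactly equal levels on all 3 arrays. Each array held between 19019 and 19569 distinct values over its 53617 probe sets, so many probe sets also share a value with others. Fixed markers of the line and of other cell types were also read. The floor was passed by 8868 of 11916 named protein-coding genes, so a marker above it does not settle the line's identity. Of 10 markers of MDA-MB-231 cells 8 were named here and all 8 were above the floor, with VIM at 9.17 log2 on every array. Among markers of receptor-positive breast cells PGR was at 2.39 log2 on every array, below the floor, and ESR1 was at 3.81 with Mt-CFX, 3.92 with CFX and 3.81 in the control. Of the 7 named markers of that class 6 were above the floor, GATA3 among them at 5.52 log2 on each array. Of other lineages 2 of 4 basal, 2 of 5 fibroblast, 1 of 4 leukocyte and 2 of 3 endothelial markers were named. CD68, the 1 leukocyte marker named, was above the floor at 9.13 log2 with Mt-CFX, 9.27 with CFX and 9.37 in the control. The other named markers of these lineages were below it.

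The upstream sequences of FST, IGFBP4 and LGR4 are shown because these are the genes whose levels differed together between Mt-CFX and the control. They are the 250 bases before the annotated start in RefSeq, build GRCh38.p14, written 5′ to 3′ on the strand of the gene. That of FST is chr5:53480379-53480628 on the plus strand, that of IGFBP4 is chr17:40443200-40443449 on the plus strand, and that of LGR4 is chr11:27472791-27473040 on the minus strand. Capitals mark matches, on either strand, to TATAAA (the TATA box), CCAAT (the CCAAT box), GGGCGG (the GC box) and TGGGAA (the core bound by RBPJ).
FST: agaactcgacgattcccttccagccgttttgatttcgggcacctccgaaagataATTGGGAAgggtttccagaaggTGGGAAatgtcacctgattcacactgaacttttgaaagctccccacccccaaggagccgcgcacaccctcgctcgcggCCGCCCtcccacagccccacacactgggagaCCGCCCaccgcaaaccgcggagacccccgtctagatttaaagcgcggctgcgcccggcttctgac
IGFBP4: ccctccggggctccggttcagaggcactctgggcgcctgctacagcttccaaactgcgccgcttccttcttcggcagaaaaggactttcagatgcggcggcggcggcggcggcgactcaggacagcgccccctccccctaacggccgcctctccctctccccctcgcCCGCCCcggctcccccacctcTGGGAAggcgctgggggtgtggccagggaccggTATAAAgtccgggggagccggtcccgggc
LGR4: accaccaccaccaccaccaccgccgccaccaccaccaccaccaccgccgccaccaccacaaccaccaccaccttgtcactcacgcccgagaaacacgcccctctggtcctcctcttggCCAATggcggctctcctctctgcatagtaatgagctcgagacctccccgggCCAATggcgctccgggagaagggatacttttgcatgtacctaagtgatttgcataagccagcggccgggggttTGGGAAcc

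No single core-promoter motif was found in all 3 of these windows. A TATA box was found in IGFBP4 alone of the 5 members, at -29 relative to the start, and 9.23% of the 15843 protein-coding upstream windows of this length in the table hold one. CCAAT was matched once in FST, at -196, and 2 times in LGR4, at -132 and -81, against 34.5% of all windows with a match. GC boxes were matched 2 times in FST, at -96 and -65, and once in IGFBP4, at -83, with a match in 56.0% of all windows. TGGGAA was matched in each of these 3 windows, 2 times in FST, at -194 and -174, and once each in IGFBP4, at -62, and LGR4, at -8. The first of these in FST overlaps its CCAAT match. It was not matched in the windows of BMP8B and NOTCH3, and 20.2% of all windows hold it. The cyclic AMP response core TGACGT and the C/EBP-ATF element TGATGNAA were matched in none of the 5 windows, against 8.67% and 2.21% of all windows. These are matches of letters and not binding sites. The windows of BMP8B and NOTCH3 were richer in G and C, at 81.6% and 78.0%, than those of IGFBP4, LGR4 and FST at 71.6%, 62.0% and 60.0%, beside a median of 62.4% over all windows.

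FST, the activin antagonist, was at 5.21 log2 with Mt-CFX, at 6.31 with CFX and at 6.46 in the DMSO control. The Mt-CFX array is the low one, and the other arrays lie close together. The log2 difference of Mt-CFX from control was -1.25, which is 42.0% of the control level and the 9th lowest of the 8868 genes. That of CFX from control was -0.14, or 90.5% of the control level. Set against CFX, FST with Mt-CFX had a log2 difference of -1.11, or 46.4% of the CFX level. Its Mt-CFX level was an exact value that 124 other probe sets of that array also have, while its levels on the CFX and control arrays were shared with 0 others.

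IGFBP4, the IGF-binding protein, had levels of 8.82 log2 with Mt-CFX, 9.96 with CFX and 10.1 in the control. The order of the arrays is the same as for FST. Mt-CFX differed from control by -1.29 log2, or 41.0% of the control level, the 7th lowest difference of all genes compared. The log2 difference was -0.15 for CFX from control and -1.14 for Mt-CFX from CFX, or 45.4% of the CFX level. None of the 3 levels of IGFBP4 was shared with another probe set, and all lay at least 4.93 log2 above the floor.

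LGR4, the R-spondin receptor, stood at 6.40 log2 with Mt-CFX, 7.47 with CFX and 7.58 in the control. Again the Mt-CFX array is low and the CFX and control arrays are near each other. The difference of Mt-CFX from control was -1.19 log2, or 44.0% of the control level, the 11th lowest. For CFX from control it was -0.11 log2, or 92.4% of the control level, and for Mt-CFX from CFX -1.07 log2, or 47.6% of the CFX level. Its control level, which enters both differences from control, was an exact value that 9 other probe sets of that array also have. Its levels on the Mt-CFX and CFX arrays were shared with 0 others. In the RefSeq annotation LGR4 overlaps the antisense gene LGR4-AS1, for which no probe set was named here.

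Across FST, IGFBP4 and LGR4 the differences of Mt-CFX from control spanned 0.102 log2 and those of CFX from control 0.035 log2. The difference seen with CFX was 11.5% of that seen with Mt-CFX for FST, 11.6% for IGFBP4 and 9.62% for LGR4, on the log2 scale. Both compounds were set against the same control array, so these pairs of values share it.

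BMP8B, the BMP ligand, had a level of 4.40 log2 with Mt-CFX, exactly the same level with CFX, and 5.05 in the control. Here the control array stands apart and the compounds cannot be ordered. The difference from control was -0.65 log2 for each compound, the 74th lowest of all genes for Mt-CFX and the 5th lowest for CFX. Its compound values were also held by 47 other probe sets on the Mt-CFX array and by 50 on the CFX array, and they lay 0.50 log2 above the floor. BMP8A, a near-identical paralog whose transcripts its probes may share, was at 4.85 log2 on all 3 arrays. Among genes that overlap BMP8B in the RefSeq annotation, PPIE had 6.08 log2 with Mt-CFX, 6.08 with CFX and 5.84 in the control, a difference from control of 0.24 for each compound. OXCT2 was below the floor at 3.28 log2 on all 3 arrays, and BMP8B-AS1 was not analysed here. Whether signal from these genes enters the BMP8B value was not tested.

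NOTCH3 was at 4.31 log2 with Mt-CFX, 4.69 with CFX and 4.11 in the control. The CFX array is the high one, and the Mt-CFX array lies between the others. The difference of CFX from control was 0.58 log2, or 150.0% of the control level, the 5th highest of all genes compared and just short of the 1.5-fold size before rounding. That of Mt-CFX from control was 0.20 log2, or 114.9% of the control level, and that of Mt-CFX from CFX -0.38, or 76.6% of the CFX level. These levels lay 0.42, 0.80 and 0.22 log2 above the floor with Mt-CFX, with CFX and in the control, close enough to leave the sizes uncertain. The CFX level was an exact value that 183 other probe sets of that array also have.

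Counted by a fixed size of 2-fold, 3 of the 5 members were lower with Mt-CFX than in the control, beside 0.259% of all genes compared, and 0 were higher, beside 0.304%. With CFX 0 members passed 2-fold in either direction, and 0.0226% of all genes were higher by that size and 0% lower. Between the compounds 3 members were at least 2-fold lower with Mt-CFX than with CFX, beside 0.124% of all genes. At 1.5-fold, 4 members were lower with Mt-CFX than in the control, beside 1.25% of all genes, and 1 was lower with CFX, beside 0.101%. None was higher by 1.5-fold, beside 1.45% of all genes with Mt-CFX and 0.0451% with CFX. Between the compounds 3 members were lower with Mt-CFX by 1.5-fold, beside 1.03% of all genes, and 0 were higher, beside 1.13%. Since the members were picked from these contrasts, the counts only restate that choice. Nearest to the 2-fold size with Mt-CFX were LGR4 inside it at -1.19 log2 and BMP8B outside it at -0.65.

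**Figure D2:**
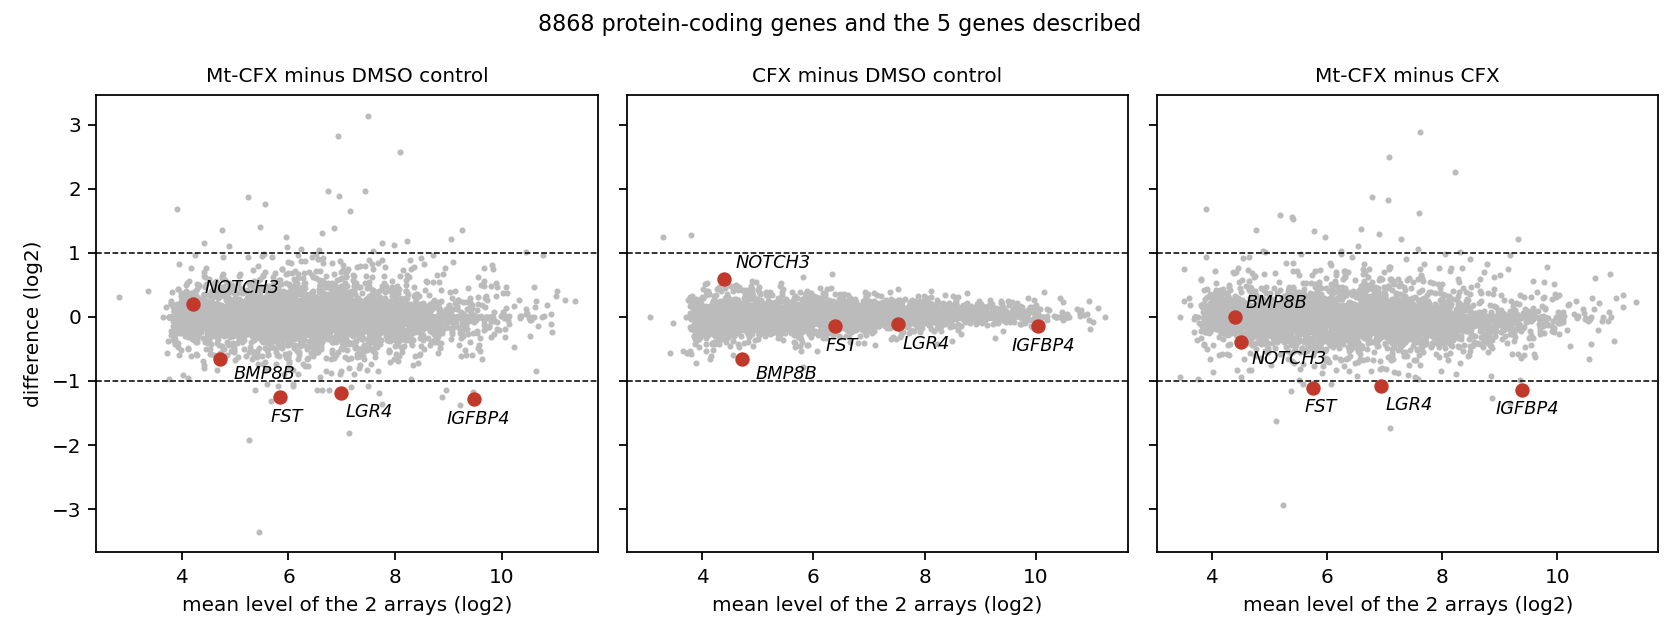
Difference (log2, y axis) against the mean level of the 2 arrays compared (log2, x axis) for 8868 protein-coding genes in grey and the 5 members in red, in 3 panels for Mt-CFX minus DMSO control, CFX minus DMSO control and Mt-CFX minus CFX, with 1 array per group. Dashed lines mark 2-fold; FST, IGFBP4 and LGR4 lie below the lower line in the first and last panels, at -1.25, -1.29 and -1.19 log2 in the first, and within 0.15 log2 of 0 in the middle one.

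The members were also set among all genes by likeness of pattern, taken as the Euclidean distance between the pairs of differences from control (CFX and Mt-CFX), over 3 arrays. FST and IGFBP4 were each other's nearest gene, at a distance of 0.035 log2, and LGR4 came next for both, at 0.073 from FST and 0.108 from IGFBP4. The gene nearest to LGR4 was ADGRF5, an adhesion receptor gene, at 0.068. ADGRF5 had 8.87 log2 with Mt-CFX, 9.86 with CFX and 10.0 in the control, and it was also the third nearest to FST. UHRF1, which maintains DNA methylation after replication, was the third nearest to IGFBP4 and to LGR4, with levels of 7.09 log2 with Mt-CFX, 8.07 with CFX and 8.28 in the control. Likeness here is one of size alone, since 3 arrays give 2 such differences per gene. The members were also picked on these same differences. As 0.259% of all genes were at least 2-fold lower with Mt-CFX than in the control, nearness among FST, IGFBP4 and LGR4 restates that choice.

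For BMP8B the nearest genes were CCL24, a chemokine gene, at a distance of 0.048 log2, OBP2B at 0.088 and EVPLL at 0.129. CCL24 was at 3.86 log2 with each compound and at 4.48 in the control, so its compound levels lay below the floor. EVPLL likewise was at 3.45 with each compound and at 4.01 in the control. OBP2B had 4.42 with Mt-CFX, 4.37 with CFX and 4.99 in the control. The genes most like NOTCH3 were PVRIG at 0.079, GALR2, a galanin receptor gene, at 0.110 and the zinc finger gene ZNF32 at 0.123. PVRIG had 4.96 log2 with Mt-CFX, 5.24 with CFX and 4.69 in the control. The highest level among these 6 genes was 1.35 log2 above the floor.

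The other genes of each pathway were read from fixed lists by role. Over all 8868 genes, 23.9% were higher with Mt-CFX than in the control, 23.2% were lower and 52.9% were exactly equal, with a median difference of 0.00 log2. With CFX 25.8% were higher, 15.0% lower and 59.2% equal, again with a median of 0.00. No count over these lists was tested.

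Of 93 genes in the activin and BMP list, 60 were named and 41 were above the floor. Leaving out FST and BMP8B, 5 of the other 39 were higher with Mt-CFX than in the control, 13 were lower and 21 were equal, with a median of 0.00 log2. At 1.5-fold 1 was higher and 2 were lower, beside 1.45% and 1.25% of all genes. The higher one was the distant ligand GDF15, a stress cytokine, at 8.33 log2 with Mt-CFX, 5.83 with CFX and 5.51 in the control. The lower ones were the ligand BMP4, at 7.03 with Mt-CFX and 7.64 both with CFX and in the control, and LTBP1, which holds latent TGF-beta in the matrix, at 6.92, 7.39 and 7.71 log2 in that order of arrays. The ligand GDF11 had a log2 difference of -0.55 with Mt-CFX and 0.00 with CFX.

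Other secreted antagonists had smaller differences than FST. FSTL3, a close relative of follistatin, had a difference of -0.06 log2 with Mt-CFX and 0.00 with CFX, and FSTL1 one of -0.09 with each compound. The BMP antagonists NOG, CHRD and GREM1 had equal levels on all 3 arrays, at 5.21, 4.43 and 4.72 log2, as had 45.3% of all genes compared. Among the transducers SMURF2, a ubiquitin ligase that acts on SMADs and their receptors, was at 10.3 log2 with Mt-CFX, 10.1 with CFX and 9.84 in the control. SKIL, a repressor of SMAD transcription, differed from control by 0.26 log2 with Mt-CFX and 0.08 with CFX, and SMAD2 by 0.17 with each compound. SMAD3 had equal levels on all 3 arrays. The activin subunit gene INHBA and the activin receptor gene ACVR2A were not analysed here, and of 19 receptor genes in the list 4 were named.

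In the IGF list 23 of 28 genes were named and 20 were above the floor. Of the 19 other than IGFBP4, 4 were higher with Mt-CFX than in the control, 11 were lower and 4 were equal, with a median of -0.024 log2. With CFX 4 were higher, 10 lower and 5 equal, with a median of -0.040. At 1.5-fold 3 of the 19 were lower with Mt-CFX and 0 were higher, beside 1.25% and 1.45% of all genes. STC1, a stanniocalcin that inhibits the proteases acting on IGFBP4, was at 5.26 log2 with Mt-CFX, 5.80 with CFX and 6.34 in the control, a difference from control of -1.09 and -0.54 log2. IGFBPL1 was at 5.97, 6.45 and 6.74 log2 on the Mt-CFX, CFX and control arrays. IGFBP1 was at 6.05 with Mt-CFX and at 6.68 both with CFX and in the control.

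The binding proteins differed among themselves. Of the 7 above the floor, IGFBP4 included, 6 were lower with Mt-CFX than in the control, 0 were higher and 1 was equal. Over all genes 23.2% were lower and 23.9% higher, and IGFBP4 itself was chosen on such values. Beside IGFBP4, IGFBPL1 and IGFBP1, the differences were small: -0.08 log2 for IGFBP5, -0.02 for IGFBP7, -0.01 for IGFBP6 and 0.00 for IGFBP3. Of the proteases, PAPPA was not analysed here. PAPPA2 differed from control by 0.15 log2 with Mt-CFX and 0.00 with CFX, and HTRA1 by -0.28 and -0.15. The PAPPA2 levels were close to the floor, at 4.31 log2 with Mt-CFX and 4.16 both with CFX and in the control. The inhibitor STC2 was at 5.02 log2 with Mt-CFX, 4.77 with CFX and 4.97 in the control. Among receptors and adaptors IGF1R differed by -0.16 log2 with Mt-CFX and -0.04 with CFX, and IRS1 by -0.34 and -0.08. The adaptor gene SHC1 ran the other way, at 9.08 log2 with Mt-CFX, 8.38 with CFX and 8.54 in the control. IRS2 differed by 0.00 with Mt-CFX and 0.09 with CFX, and GRB10 by 0.09 and 0.01.

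Of 91 genes in the Wnt list 58 were named and 45 were above the floor. Without LGR4, 7 of 44 were higher with Mt-CFX than in the control, 15 were lower and 22 were equal, and with CFX 10 were higher, 12 lower and 22 equal, each with a median of 0.00 log2. At 1.5-fold 3 were lower with Mt-CFX and 1 was higher, beside 1.25% and 1.45% of all genes. Those lower were all receptors or co-receptors of Wnt ligands. ROR1, a Wnt5a receptor, was at 6.79 log2 with Mt-CFX, 7.67 with CFX and 7.68 in the control. FZD2, a Frizzled receptor, was at 5.16, 5.60 and 5.98 log2 in that order, and the co-receptor LRP5 at 6.97, 7.49 and 7.72.

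Over the 14 Wnt receptors above the floor, LGR4 not among them, 8 were lower with Mt-CFX than in the control and 1 was higher. Over all genes these shares were 23.2% and 23.9%. The other 5 were equal, and the median was -0.15 log2. The 1 higher receptor was RYK, by 0.00086 log2, which is next to nothing. With CFX 5 were lower and 3 higher, beside 15.0% and 25.8% of all genes. The other 6 were equal, with a median of 0.00. The differences of Mt-CFX from control were -0.48 log2 for FZD1 and -0.35 for LRP6, while FZD3, FZD5, FZD6, FZD8 and PTK7 were at 0.00. Set directly against CFX, 9 of the 14 were lower with Mt-CFX and 0 were higher, beside 25.2% and 20.1% of all genes. Of 25 intracellular genes in the list 11 were named and above the floor. Against control 4 of them were higher with Mt-CFX, 4 lower and 3 equal. Main transducers such as CTNNB1, DVL1, DVL2, DVL3 and TCF7L2 were not analysed here, and no Wnt ligand was above the floor. How receptors compare with the intracellular part of the pathway is therefore not shown.

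The partners of LGR4 that were above the floor had small differences, some of them at levels close to it. The paralog LGR6 and the ligase RNF43 were equal on all 3 arrays, at 4.16 and 4.10 log2. Equality so near the floor of 3.89 says little. LGR5, RSPO2 and RSPO3 were below the floor on all 3 arrays, at 3.06, 2.89 and 3.26 log2. ZNRF3 differed from control by -0.05 log2 with Mt-CFX and 0.00 with CFX. RSPO4 was higher by 0.21 log2 with CFX and at 0.00 with Mt-CFX. Of the Wnt targets, AXIN2, NKD1 and NKD2 had equal levels on all 3 arrays, at 4.80, 4.69 and 4.16 log2 beside the floor of 3.89. Of all genes compared 45.3% were equal in this way, so equality at these levels says little on Wnt output. MYC, which is controlled by many other pathways as well, was at 7.94 log2 with Mt-CFX, 7.38 with CFX and 7.06 in the control. DKK1, a secreted Wnt antagonist, was at 7.88, 8.26 and 8.36 log2 on the Mt-CFX, CFX and control arrays. Inside the cell, APC2 differed from control by 0.34 log2 with Mt-CFX and 0.43 with CFX, LEF1 by 0.15 and 0.13, and PYGO2 by -0.26 with each compound.

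In the Notch list 48 of 51 genes were named and 38 were above the floor. Of the 37 other than NOTCH3, 10 were higher with Mt-CFX than in the control, 9 were lower and 18 were equal, and with CFX 5 were higher, 5 lower and 27 equal, with medians of 0.00 log2. NOTCH3 was the 1 receptor that differed from control with CFX. NOTCH2 and NOTCH4 had equal levels on all 3 arrays, and NOTCH1 was at 6.39 log2 with Mt-CFX and 6.55 both with CFX and in the control. At 1.5-fold 1 gene was lower with Mt-CFX and 0 were higher, beside 1.25% and 1.45% of all genes. This was LFNG, a glycosyltransferase that modifies Notch receptors, at 4.06 log2 with Mt-CFX, 4.50 with CFX and 4.75 in the control.

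Ligands and targets of Notch that were above the floor had small differences. They were 3 of 8 ligands and 5 of 9 targets, and the target gene HES1 was not analysed here. JAG1 was at 9.10 log2 with Mt-CFX, 9.06 with CFX and 9.18 in the control, and JAG2 differed from control by 0.13 log2 with each compound. ADAM17, a protease that can cleave Notch receptors, differed by 0.25 log2 with Mt-CFX and 0.00 with CFX. The target gene HES7 was at 5.03 with Mt-CFX and 4.75 both with CFX and in the control. All 5 targets above the floor had exactly the same level with CFX as in the control, beside 59.2% of all genes. With Mt-CFX 3 of these targets were higher and 2 were equal, by at most 0.28 log2. The regulator NEURL1 differed from control by -0.22 log2 with each compound.

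**Figure D3:**
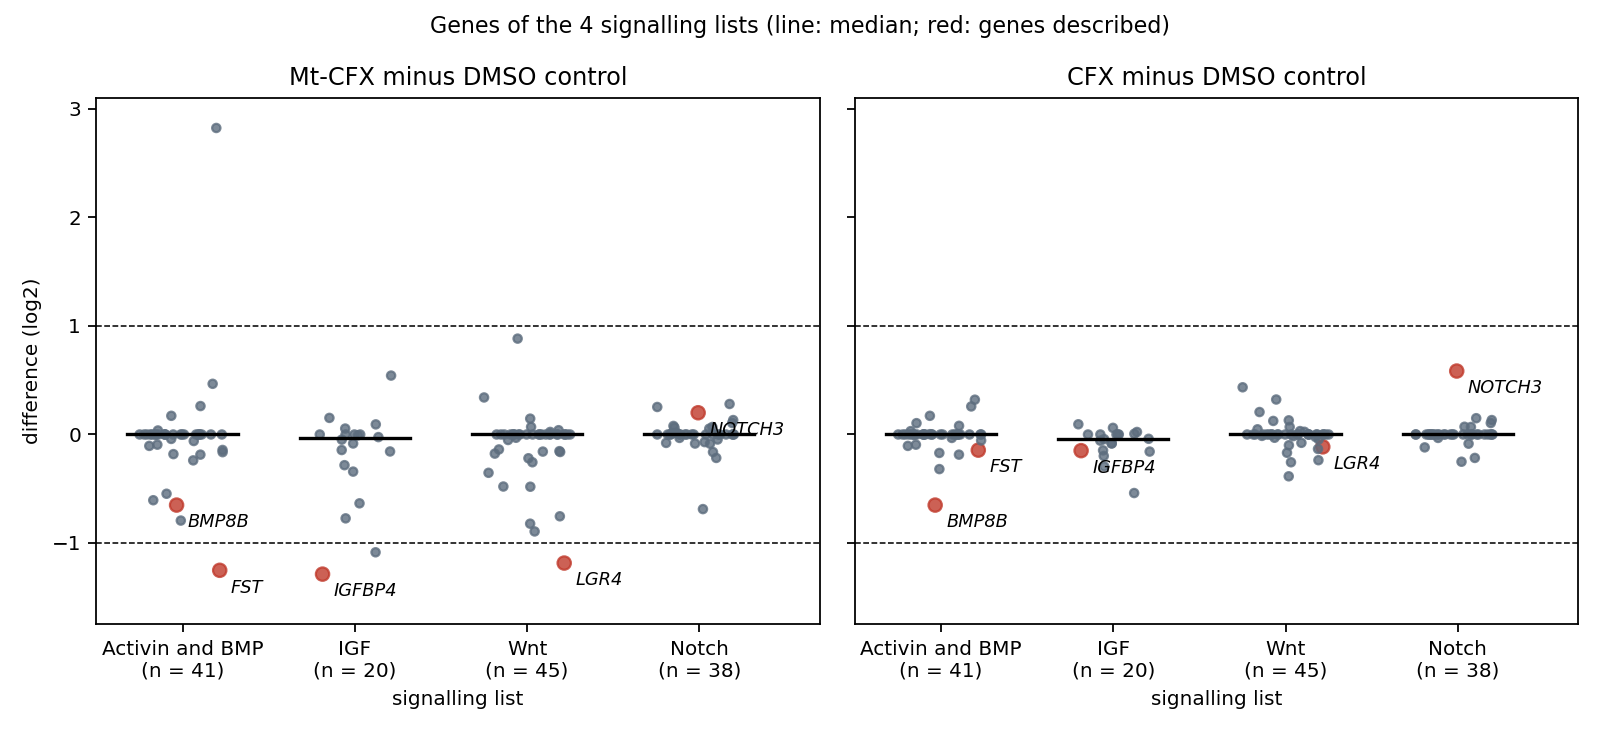
Differences from the DMSO control (log2, y axis) for genes of the 4 signalling lists above the floor, with Mt-CFX on the left and CFX on the right, 1 point per gene and 1 array per group. Red points are the members, black lines list medians and dashed lines 2-fold; FST, IGFBP4 and LGR4 lie at the lower end of their lists with Mt-CFX, while medians stay between -0.041 and 0.00 log2 in both panels.

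**Figure D4:**
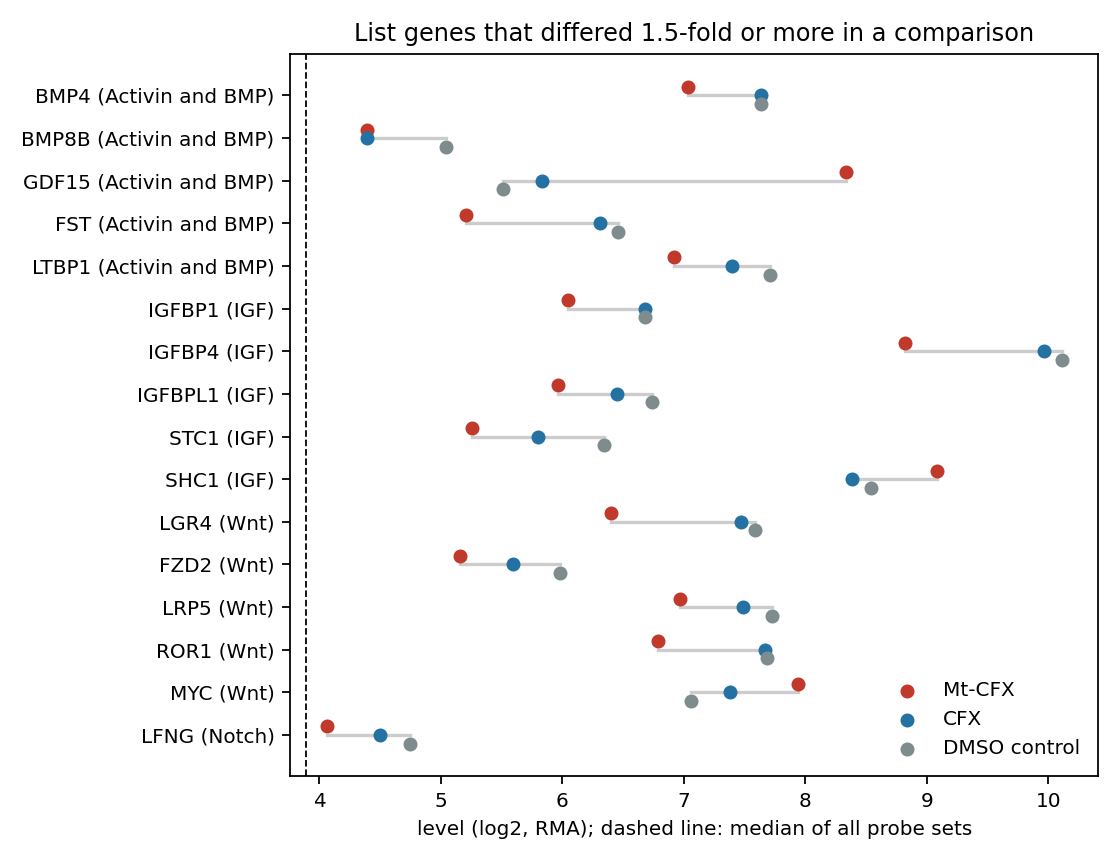
Levels (log2, RMA) on the Mt-CFX, CFX and DMSO control arrays for the 16 list genes that differed at least 1.5-fold in any of the 3 comparisons, 1 point per array, with the list of each gene in brackets. The CFX point lies with or near the control point for BMP4, FST, IGFBP1, IGFBP4, LGR4 and ROR1, between the others for LTBP1, STC1, FZD2 and LFNG, and with the Mt-CFX point for BMP8B.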

How the data were processed

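Per the labels' protocols, RNA of 3 MDA-MB-231 cultures was labelled for whole-transcript arrays. The authors deposited log2 values for probe sets; the submitters' processing notes name RMA and Affymetrix Expression Console, while versions, annotation release and genome build are not given in the sources used here. Of 53617 probe sets 16098 carry 1 gene symbol in the platform annotation and 37519 carry none and were not used. A gene's probe set with the highest mean over the 3 arrays stood for it; each member has 1. Genes were protein-coding, with the highest array at or above the median of all probe sets. Differences of log2 values were described, with no test. The floor, probe set rule, centring, lowess re-centring (span 0.3), gene types and fold size were varied. The counting was tested on simulated data. Members and lists were chosen with earlier results of these data known. Named list genes were those past 1.5-fold and the 3 highest and 3 lowest of each list and comparison. Of these AMH, APCDD1, GSK3B and MAML3 were left out above. AMH differed from control by -0.19 log2 with each compound. For Mt-CFX from CFX the differences were 0.04 log2 for APCDD1, 0.02 for GSK3B and 0.08 for MAML3. Levels of relatives and partners of the members, and of other list genes, were added after their values were seen. Upstream sequences are RefSeq's, GRCh38.p14, found for all 5 members. Computation used Python 3.11.15, numpy 2.4.6, pandas 2.3.3, statsmodels 0.14.6 and matplotlib 3.10.9. With 1 array per group, precision is unknown.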

Additional observations from a re-analysis of the deposited data

Results flagged for a closer look

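Among the members and the genes of the 4 lists above the floor, 6 differed from the vehicle control in opposite directions with the compounds. The lists hold 41, 20, 45 and 38 such genes, the members among them. Differences of any size were counted. The share of all genes compared that did so was not computed, so the count has no background. With 1 array per group this was not tested. SHC1 was at 0.54 log2 with Mt-CFX and -0.16 with CFX, which sets the compounds 0.70 log2 apart. For STC2 the values were 0.05 and -0.20, a difference of 0.25 between Mt-CFX and CFX. For NUMBL, a regulator of Notch, they were -0.05 and 0.15, a difference of -0.20. For ROR2, a Wnt receptor, they were -0.14 and 0.05, a difference of -0.19. For IGFBP7 they were -0.024 and 0.023, a difference of -0.047, and for CCN2 -0.041 and 0.0027, a difference of -0.044.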

How the results depend on the processing

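All 45 recomputed differences of the 5 members, over 3 comparisons and 3 settings, stayed within 0.1 log2, the tolerance used. The largest shift was 0.025 log2 with centring on array medians and 0.021 with lowess re-centring, and 0.00 with the mean of probe sets. Each member has 1 probe set, so the mean of probe sets could not move its values. Centring on medians shifts every gene of a comparison by the same amount, so it says nothing on the members in particular. A floor at the 75th percentile, 5.43 log2, would leave BMP8B and NOTCH3 out. Counts over all genes, which serve as background, depended on the size: at 1.5-fold 129 were higher and 111 lower for Mt-CFX over control, 4 and 9 for CFX over control, and 100 and 91 for Mt-CFX over CFX. Of the 2 genes at least 2-fold higher with CFX, 0 were left where the mean over arrays had to reach the floor, and 0 with a floor at the 75th percentile, and genes of every type gave 6. The count of 0 lower with CFX became 1 with no floor and 1 with genes of every type. For Mt-CFX over control the mean of the IGF list was -0.20 log2 against a median of -0.036 and that of the Wnt list -0.11 against 0.00; for Mt-CFX over CFX the Wnt mean was -0.10. The other 37 counts and 45 list medians stayed within 1.5 times or 0.1 log2. No paired analysis was possible because each group was 1 array, and for that reason no array could be left out.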
